A study of Homo sapiens with 12 samples.

Results

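The response of A431 cells to everolimus was read from 6 of the 12 arrays of the series, 3 of cells given everolimus and 3 of cells given the vehicle DMSO. Members were every gene that had a probe set with 1 gene symbol, each gene being represented by whichever of its probe sets was highest on average over the 12 arrays. This gave 14884 genes, of which 10613 could be tested because at least 3 of the 12 arrays lay above their own median. A431 is an established human line of squamous cell carcinoma of the skin, and HSC-1, a second such line, supplied the other 6 arrays, 3 with DMSO and 3 with 100 nM everolimus for 72 h. The A431 groups were A431 with DMSO for 72 h and A431 with 100 nM everolimus for 72 h, with no other agent or genetic change named for either. Each line stands for 1 tumour, and nothing in the labels states that the arrays within a group were grown as separate cultures. The p-values therefore reflect array-to-array spread alone, which may be technical.

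Everolimus is a rapamycin analogue that binds FKBP12 and inhibits mTOR complex 1, the kinase complex that couples growth factors and amino acids to protein, lipid and nucleotide synthesis. Through its substrates this complex controls above all the translation of messages that begin with a terminal oligopyrimidine tract, which encode ribosomal proteins and translation factors, and it also feeds back on receptor signalling. Squamous cells divide in a basal state marked by KRT5 and KRT14 and then turn on cornified envelope precursors, S100 proteins and kallikreins as they differentiate. An array measures only the amount of each RNA, not its translation.

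The A431 label was checked against 17 squamous epithelial markers, of which 9 had a named probe set and 8 lay above the array median on all 6 arrays. Among them were KRT5 (9.33 ± 0.09 in everolimus, SD, n = 3), KRT14 (9.67 ± 0.04) and the 14-3-3 protein SFN (10.77 ± 0.01), in log2 units of the deposited RMA values. The list also held the adhesion protein EPCAM (9.04 ± 0.04), which is not particular to squamous epithelium. Summed on the linear scale, these markers came to 5915 to 6014 in DMSO and 5278 to 5409 in everolimus. Few markers of other cell types were measured, and they lay on both sides of the array median. The fibroblast genes LUM and THY1, the melanocyte genes MITF and SOX10, the leukocyte genes CD4 and CD68 and the endothelial gene CLDN5 lay above it on all 6 arrays. CD68 aside, these ranged from 4.39 (CD4) to 5.82 (SOX10). The fibroblast gene DCN, the melanocyte genes MLANA, TYR, TYRP1 and KIT, the leukocyte gene LYZ and 4 of 6 endothelial genes, PECAM1 and VWF among them, lay below the median on all 6 arrays. The sums were 59.7 to 64 in DMSO and 57.9 to 69.6 in everolimus for 3 fibroblast genes, and 153.7 to 160.8 and 137.4 to 155.7 for 7 melanocyte genes. They were 101 to 122.4 and 113.7 to 124.2 for 6 endothelial genes. The 4 leukocyte genes summed to 1700 to 1753 and 1495 to 1520, nearly all of it CD68, a lysosomal protein that many cell types make. Because RMA forces all arrays onto the same distribution, a shift in total RNA would be hidden, and fewer cells of a kind and less RNA per cell cannot be told apart.

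Array medians ran from 4.34 to 4.36 and arrays within a group had correlations of 0.989 to 0.991, against 0.988 to 0.991 between an everolimus and a DMSO array. The first principal component of the tested genes, with 36.9% of the variance, put the DMSO arrays at -9.79, -8.29 and -6.83 and the everolimus arrays at 9.33, 10.6 and 4.95. The second component, with 20.0%, ran from DMSO replicate 3 (-8.38) to everolimus replicate 3 (10.8), with the other arrays between them. Log2 differences had a median SE of 0.09, a precision set by 3 arrays a group.

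With limma and Benjamini-Hochberg adjustment over the 10613 genes, 714 (6.73%) passed an adjusted p of 0.05. Of these, 254 (2.39% of those tested) rose and 460 (4.33%) fell. All counts for gene lists below are to be read against these shares. Most changes were small. The median rise was 0.27 and the median fall 0.32 on the log2 scale, and 114 of the risers and 147 of the fallers moved less than 1.2-fold. At 1.5-fold or more, 57 genes (0.537%) fell and 9 (0.0848%) rose, and at 2-fold or more 10 fell and 0 rose. The 3 everolimus and 3 DMSO arrays did not overlap in 24.5% of all tested genes, in 705 of the 714 and in all 66 that moved 1.5-fold. Single arrays mattered for the total. It dropped to 458 genes without DMSO replicate 1 and to 456 without DMSO replicate 2, with 282 and 296 falling. Rises numbered 160 without DMSO replicate 2, 159 without DMSO replicate 3 and 157 without everolimus replicate 1, and falls numbered 300 without everolimus replicate 2. Calls made in the fit on all arrays and in each of the 6 fits that left out an A431 array numbered 317, with 91 up and 226 down, and they included 64 of the 66 genes that moved 1.5-fold.

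**Figure D1:**
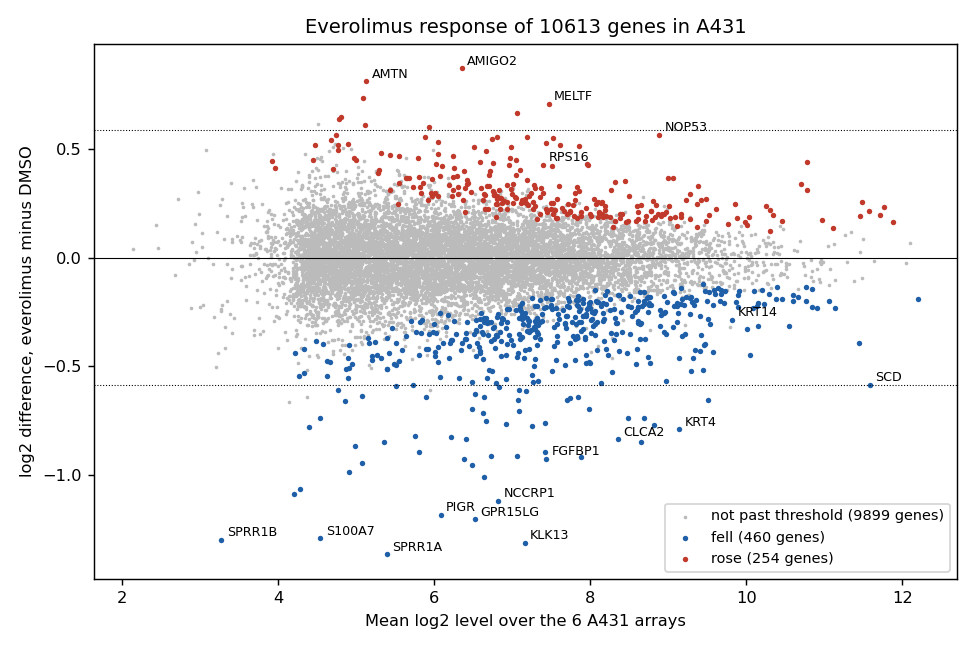
Log2 difference in A431 (everolimus minus DMSO) against the mean log2 level over the 6 A431 arrays for 10613 genes, with red for the 254 that rose, blue for the 460 that fell, grey for the rest and dotted lines at 1.5-fold. The falls reach -1.36 for SPRR1A, while the largest rise is 0.87 for AMIGO2, and genes at low levels had to move further to pass.

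Single genes of late squamous differentiation were among those with large falls. SPRR1A, a small proline-rich precursor that is cross-linked into the cornified envelope, read 6.07, 6.22 and 5.93 on the 3 DMSO arrays and 4.81, 4.42 and 4.89 on the 3 everolimus arrays. The highest everolimus array thus lay more than 1 log2 unit below the lowest DMSO array (difference -1.36 ± 0.11, SE, limma adjusted p = 4.3e-07). Its neighbour in the family, SPRR1B, read 4.28, 3.94 and 3.54 in DMSO and 2.64, 2.91 and 2.32 in everolimus, with no overlap, but below the array median on every array. Related SPRR genes are close in sequence, so probe sets may share signal. SCEL (sciellin, another envelope precursor) went from 8.86 ± 0.03 to 8.12 ± 0.04 (SD, n = 3) and the ceramide synthase CERS3, which makes the very long ceramides of the skin barrier, from 7.55 ± 0.04 to 6.98 ± 0.07. Of 33 tested members of the cornified envelope and late differentiation list, 6 fell and 0 rose, against 4.33% and 2.39% of all tested genes. The list had a median of -0.15, against -0.00376 over all tested genes. The other 2 fallers, the transcription factor GRHL1 (-0.48) and the plakin PPL (-0.28), were named after their values were seen, and the GRHL1 call was lost without DMSO replicates 1 or 2 or everolimus replicates 1 or 3. The other 29 of 62 listed genes were not tested.

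Kallikreins are secreted serine proteases that shed squamous cells by cutting desmosomes, and 6 of them fell. KLK13 read 7.96, 7.78 and 7.70 in DMSO and 6.46, 6.45 and 6.60 in everolimus, with more than 1 log2 unit between the groups (-1.31 ± 0.12, limma adjusted p = 1.48e-06). KLK7, a chymotrypsin-like member that cuts corneodesmosin, read 8.18, 8.24 and 8.30 against 7.77, 7.78 and 7.72, and KLK9 read 9.53, 9.64 and 9.62 against 9.30, 9.25 and 9.17. In both genes the groups did not overlap, and the differences were -0.48 ± 0.08 and -0.36 ± 0.05. Of 13 tested members of the list, which includes inhibitors and LYPD3, a GPI-anchored surface protein of the upper epidermis (-0.77 ± 0.05), 7 fell (LYPD3 and 6 kallikreins), 5 did not pass, and all 7 fell in each of the 6 fits without an array. Over all tested genes 4.33% fell, and the median of the list was -0.27. KLK11 (-0.35), KLK10 (-0.31) and KLK8 (-0.27), named after their values were seen, were the other fallers. KLK6 was the 1 member that rose (0.20, limma adjusted p = 0.0399), a call that none of the 6 fits without an array made.

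Among S100 proteins, small calcium-binding proteins many of which lie in the epidermal differentiation complex, 5 of 14 tested members fell, 0 rose and the median was -0.22. This compares with 4.33% of all tested genes that fell. S100A7 (psoriasin, an antimicrobial protein) read 5.18, 5.17 and 5.20 in DMSO and 3.72, 3.72 and 4.24 in everolimus, the latter below the array median, so that the size of this difference depends on the background. S100A8, a subunit of the alarmin calprotectin, read 6.27, 6.30 and 6.18 against 5.41, 5.17 and 5.48. Its partner S100A9 read 7.39, 7.42 and 7.52 against 6.90, 6.76 and 6.55. In all of these genes the groups were apart, with differences of -1.29 ± 0.14, -0.89 ± 0.08 and -0.71 ± 0.08. S100A16 (-0.37 ± 0.06) and S100A14 (-0.21, named after its value was seen) were the other fallers, and all 5 calls were made in each fit without an array.

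Keratins, the intermediate filament proteins of epithelia, fell among both mucosal and basal members. KRT4, the suprabasal keratin of moist squamous epithelia, read 9.50, 9.57 and 9.53 in DMSO and 8.69, 8.81 and 8.73 in everolimus. Its partner KRT13 read 9.88, 9.87 and 9.78 against 9.16, 9.21 and 9.19. KRT15, a basal keratin, read 9.57, 9.55 and 9.53 against 8.99, 9.05 and 9.04. Each gene had its 3 everolimus arrays within 0.129 log2 units of each other and at least 0.474 below DMSO, and the differences were -0.79 ± 0.05, -0.66 ± 0.07 and -0.52 ± 0.04. KRT14 fell by 0.29 ± 0.04, while KRT5 differed by -0.02 ± 0.05 (limma adjusted p = 0.876). These 4 were the only keratins called among 16 tested, with a median of -0.11 and 0 rises.

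**Figure D2:**
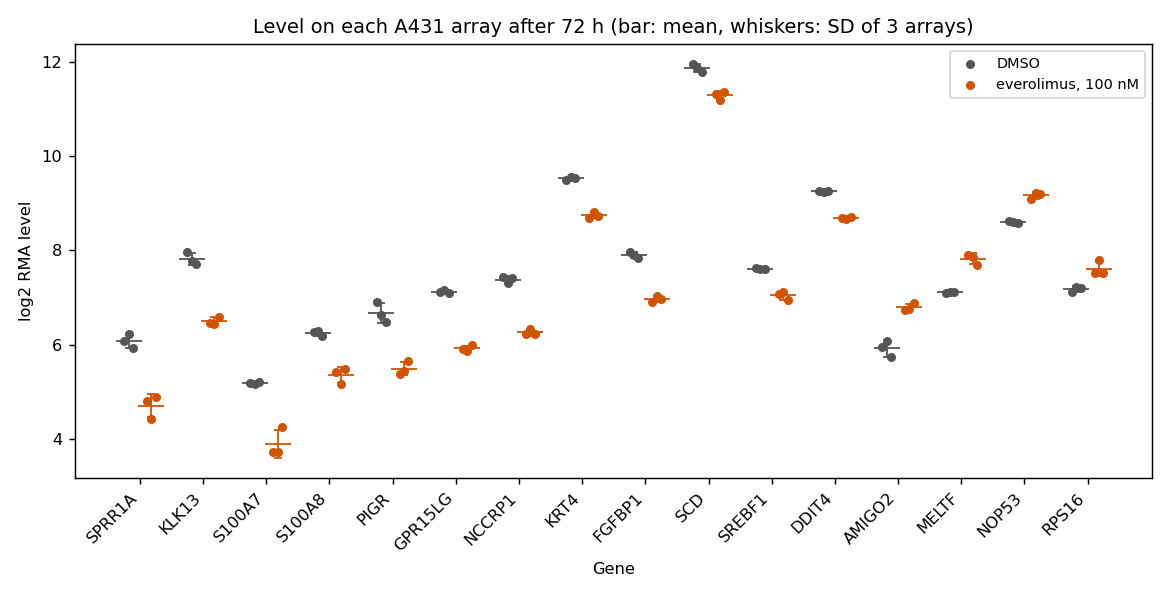
Log2 RMA level of 16 genes on each of the 6 A431 arrays (dots), with the mean (bar) and SD of 3 arrays (whiskers), DMSO in grey and 100 nM everolimus in orange. No gene shown has overlapping groups: SPRR1A lies at 5.93 to 6.22 in DMSO and 4.42 to 4.89 in everolimus, and NOP53 at 8.59 to 8.62 and 9.09 to 9.22.

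Genes typical of mucosal and secretory epithelia, which include antimicrobial and mucus-layer proteins, formed the list with the lowest median, -0.33, among those with at least 10 tested members. Of 19 tested, 8 fell, 0 rose and 2 had a positive difference, against 49% positive over all tested genes. The list was drawn up with earlier results of these data known, so its rank is a description. GPR15LG, a secreted ligand of the receptor GPR15, read 7.12, 7.16 and 7.10 in DMSO and 5.92, 5.86 and 5.98 in everolimus. PIGR, which carries polymeric immunoglobulins across epithelia, read 6.90, 6.63 and 6.48 against 5.38, 5.43 and 5.65, and AOC1, the histamine-degrading diamine oxidase, read 7.03, 7.13 and 7.28 against 6.34, 5.94 and 6.13. All 3 lay lower on every everolimus array, 2.3-fold, 2.27-fold and 2.01-fold in the means. The adhesion glycoproteins CEACAM6 (5.40 ± 0.14 to 4.41 ± 0.07) and CEACAM5 (5.55 ± 0.08 to 4.61 ± 0.22) fell by 0.99 ± 0.10 and 0.95 ± 0.10, though these are close copies whose probe sets may share signal. The protease inhibitor SLPI (-0.52), the ion transport regulator FXYD3 (-0.34) and the immune checkpoint protein VTCN1 (-0.54, lost without everolimus replicate 1) were the other fallers, named after their values were seen.

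Genes of cell junctions were among the fallers. DSG3, the desmosomal cadherin of basal layers, read 9.59, 9.57 and 9.48 in DMSO and 9.05, 9.07 and 9.13 in everolimus, without overlap (-0.46 ± 0.05, limma adjusted p = 2.98e-06). The tight junction protein CLDN1 fell by 0.31 ± 0.04, the plakophilin PKP2 by 0.30 ± 0.06 and JUP (plakoglobin, which links desmosomal cadherins to the plaque) by 0.23 ± 0.03. Of 17 tested desmosome and tight junction genes, 7 fell and 0 rose, against 4.33% and 2.39% of all tested genes. In this list 2 had a positive difference, with a median of -0.17. In the fit without the intensity trend 4 fell. Only 3 of 32 genes for integrins, laminins and hemidesmosomes were tested. The linker PLEC differed by 0.22 ± 0.06 and was called (limma adjusted p = 0.0263), but not without DMSO replicate 1 (0.146) or 2 (0.0567) or without everolimus replicate 1 (0.0636), 2 (0.0964) or 3 (0.0502). The squamous marker SFN fell by 0.14 ± 0.03 (limma adjusted p = 0.0135), a call lost without DMSO replicate 2 (0.082).

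The other genes that fell at least 1.5-fold are given by what they encode. FGFBP1, which releases fibroblast growth factors from the matrix, read 7.96, 7.89 and 7.85 in DMSO and 6.92, 7.04 and 6.98 in everolimus, with no overlap. CLCA2, which modulates chloride currents in squamous cells, fell from 8.77 ± 0.04 to 7.93 ± 0.03, and NCCRP1, an F-box family protein of squamous epithelia, from 7.38 ± 0.07 to 6.26 ± 0.07. Other surface proteins that fell were the interleukin 6 receptor IL6R (-0.85 ± 0.10), the NKG2D ligand RAET1E (-0.91 ± 0.09), the dipeptidyl peptidase DPP4 (-0.78 ± 0.16), SLAMF7 (-0.75 ± 0.14), the contactin CNTN1 (-0.64 ± 0.11), the platelet-activating factor receptor PTAFR (-0.63 ± 0.11) and the water and glycerol channel AQP3 (-0.64 ± 0.07). LDLRAD1 (-0.93 ± 0.12), BCAS1 (-0.76 ± 0.15), TMEM45A (-0.59 ± 0.10) and the transmembrane glycoprotein GPNMB (-0.59 ± 0.08) fell as well. The chloride channel family protein CLIC3 (-0.65 ± 0.09) and the annexin ANXA9 (-0.70 ± 0.11) also fell.

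Matrix and secreted proteins in this group were the extracellular matrix protein ECM1 (-0.77 ± 0.08), the integrin ligand NPNT (-0.65 ± 0.10), osteopontin SPP1 (-0.82 ± 0.15), the extracellular chaperone CLU (-0.61 ± 0.07) and the collagen prolyl 3-hydroxylase P3H2 (-0.91 ± 0.06). HAS2, a hyaluronan synthase, fell by 0.66 ± 0.16 (limma adjusted p = 0.0135), a call lost without DMSO replicate 2 (0.0909) and without everolimus replicate 2 (0.0704). In the wider list of matrix proteases and matricellular proteins, 6 of 27 tested genes fell and 0 rose, with a median of -0.03. Over all tested genes 4.33% fell. The fallers of the list included the metalloprotease inhibitor TIMP2, which read 7.91, 7.93 and 7.92 in DMSO and 7.46, 7.42 and 7.41 in everolimus. TIMP2 thus fell with almost no spread within either group (-0.49 ± 0.05). FBLN1 (-0.29 ± 0.05) and the thrombospondin THBS1 (-0.27 ± 0.04) fell less.

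Intracellular proteins and enzymes made up the rest. They were the retinoic acid carrier CRABP2 (-0.85 ± 0.10), the TEAD cofactor VGLL1 (-0.74 ± 0.07), the first enzyme of sialic acid synthesis GNE (-0.78 ± 0.07), the adaptor BLNK (-0.84 ± 0.12), the thioesterase THEM5 (-0.90 ± 0.11) and the lipase relative PNLIPRP3 (-1.06 ± 0.13). The prostaglandin dehydrogenase HPGD (-0.64 ± 0.11), the ceramidase ACER2 (-0.64 ± 0.11), the glycerophosphodiesterase GDPD2 (-0.83 ± 0.11) and the gasdermin GSDMC (-0.63 ± 0.10) belong here too. DENND2C (-0.72 ± 0.09), LMO7 (-0.70 ± 0.11), SASH1 (-0.61 ± 0.10), LEMD1 (-0.87 ± 0.12) and the cilium gene CFAP47 (-1.09 ± 0.15) fell, as did the probe set of the pseudogene ADAM20P1 (-0.74 ± 0.15). SOX2, a transcription factor of squamous progenitors, fell from 5.08 ± 0.14 to 4.47 ± 0.21. LURAP1L fell by 0.59 ± 0.13 (limma adjusted p = 0.0108), a call lost without everolimus replicate 2 (0.0598). Of the 66 genes that moved 1.5-fold, 9 lay below the array median on at least 1 A431 array, and for these the fold is the least certain. Among the 9 were CFAP47 (3.72, 3.70 and 3.56 in everolimus) and DPP4 (4.05, 4.06 and 3.9). Within A431 both lay above the median on the DMSO arrays alone, so the level filter was met there only where they were high.

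The promoters of the 1.5-fold fallers were searched for 9 short motifs, since AP-1, C/EBP, KLF, TEAD and Grainyhead factors are known regulators of squamous genes. RefSeq sequences (GRCh38.p14) held 48 of the 57 fallers and 8089 of all tested genes, and the window was the 250 bases before the annotated start, on both strands. The AP-1 letters TGANTCA, which read the same on both strands, were in 10 of the 48 (20.8%), in 24 of all 366 fallers with a promoter (6.56%), in 9 of 209 risers (4.31%) and in 357 of all 8089 (4.41%). The C/EBP letters TTNCNNAA were in 17 of 48 (35.4%) against 23.0% of all, and the TEAD letters GGAATG in 9 (18.8%) against 9.79%. Shares near those of all genes were seen for the E-box CACGTG (8.33% against 8.65%) and the KLF letters CACCC (60.4% against 59.5%). The hypoxia core ACGTG, whose letters lie within the E-box, was in 12.5% against 22.7%, and the sterol element TCACNCCAC in 1 of 48 against 0.766% of all. The NF-kappa-B motif and the Grainyhead motif (AACCGGTT) were in 0 of 48, against 0.161% and 0.124%. These strict letters were in only 13 and 10 of all 8089, so 0 of 48 cannot show a difference. Below, 5 of the windows with the AP-1 letters are shown as examples. They belong to the envelope precursors SPRR1A, SPRR1B and SCEL, to CLCA2 and to the matrix protein ECM1. Each runs 5′ to 3′ on the gene's strand, which is the plus strand in each, with the motif in capitals. These letters are a description of the promoters and not a bound site.
SPRR1A, chr1:152983943-152984009: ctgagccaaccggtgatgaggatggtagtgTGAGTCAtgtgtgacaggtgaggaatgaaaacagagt
SPRR1B, chr1:153031032-153031098: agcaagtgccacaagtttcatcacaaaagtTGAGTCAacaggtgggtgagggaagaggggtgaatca
SCEL, chr13:77535627-77535693: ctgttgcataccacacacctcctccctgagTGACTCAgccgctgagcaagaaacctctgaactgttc
CLCA2, chr1:86423981-86424047: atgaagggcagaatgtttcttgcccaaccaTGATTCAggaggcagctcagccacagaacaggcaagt
ECM1, chr1:150508001-150508067: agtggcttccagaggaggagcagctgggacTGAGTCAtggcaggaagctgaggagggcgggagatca
The first bases of these motifs lie 108, 141, 49, 160 and 78 bases before the start. SPRR1B and ECM1 each hold the letters again, at 111 and 204 bases before the start. Over all genes with the letters, 6.72% fell and 2.52% rose, against 4.42% and 2.59% of those without, so the larger share was seen in the 1.5-fold fallers.

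Rises were fewer and smaller. AMIGO2, an adhesion protein with leucine-rich repeats, read 5.95, 6.08 and 5.73 in DMSO and 6.74, 6.75 and 6.88 in everolimus, with no overlap (0.87 ± 0.09, limma adjusted p = 4.72e-06). MELTF (melanotransferrin, an iron-binding surface protein) read 7.10, 7.12 and 7.12 against 7.91, 7.87 and 7.68, and ANTXR1, a collagen-binding receptor, read 6.63, 6.68 and 6.88 against 7.47, 7.24 and 7.49. All arrays with everolimus lay above all arrays with DMSO in both genes. The enamel matrix protein AMTN (0.81 ± 0.12), the prostacyclin synthase PTGIS (0.73 ± 0.12), the actin-capping tropomodulin TMOD2 (0.64 ± 0.11), the mitochondrial reductase MTARC1 (0.61 ± 0.10) and the membrane fusion syntaxin STX2 (0.60 ± 0.12) completed the group with TTN (0.65 ± 0.10). A second probe set of TTN differed by -0.04, and with the mean of its probe sets TTN was not called (limma adjusted p = 0.0872).

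Of 52 tested cytosolic ribosomal proteins (86 listed), 22 rose, 0 fell and 30 did not pass, against 2.39% of all tested genes that rose. There were 46 positive differences, against 49% positive over all tested genes, and the median was 0.18. The rises held for 13 genes in all 6 fits without an array. Without the intensity trend, 13 rose. RPS16 read 7.12, 7.23 and 7.20 in DMSO and 7.53, 7.79 and 7.51 in everolimus, RPS14 read 6.05, 6.18 and 6.08 against 6.54, 6.57 and 6.33, and RPL26 read 8.24, 8.29 and 8.27 against 8.62, 8.64 and 8.59. The groups did not overlap in any of these, and RPS18 rose by 0.35 ± 0.07. Ribosomal protein genes have many processed pseudogenes, whose sequence a probe set can share. Of 14 tested other transcripts known to carry an oligopyrimidine tract, 5 rose (4 in all 6 fits without an array), 0 fell, 9 did not pass and 13 were positive, with a median of 0.15. The elongation factor subunit EEF1G read 10.51, 10.56 and 10.52 against 10.88, 10.85 and 10.88, and the initiation factor EIF4B read 9.24, 9.24 and 9.18 against 9.59, 9.48 and 9.57. Both were thus higher on all 3 everolimus arrays. A second probe set differed by 0.18 for EEF1G and 0.36 for EIF4B, against 0.34 and 0.33 for those used. The nucleosome assembly protein NAP1L1 rose by 0.32 ± 0.07 and the elongation factor EEF2 by 0.17 ± 0.03. EEF2 was not called without the intensity trend (limma adjusted p = 0.0812), where 3 of the 14 rose.

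The bases at the annotated starts are shown for risers of these lists, for the ribosome assembly factors NOP53 and NIP7, and for MTOR and SNHG8, which were called as rises too, because the tract is the feature that marks messages under mTOR complex 1 control. Each line gives 15 bases before the RefSeq start (GRCh38.p14) and 15 from it, 5′ to 3′ on the gene's strand, with the run of pyrimidines from the first transcribed C in capitals.
RPS16, chr19:39435935-39435964, minus strand: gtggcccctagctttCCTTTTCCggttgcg
RPS14, chr5:150449725-150449754, minus strand: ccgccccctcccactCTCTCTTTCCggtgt
RPL26, chr17:8383179-8383208, minus strand: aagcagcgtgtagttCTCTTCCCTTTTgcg
RPS18, chr6:33272060-33272089, plus strand: cgcgtcacttccgctCTCTCTTCCacagga
NOP53, chr19:47745531-47745560, plus strand: gccagtggctgagttCTTCCTTTgacaaga
EIF4B, chr12:53006441-53006470, plus strand: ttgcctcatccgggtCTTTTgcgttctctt
NAP1L1, chr12:76084671-76084700, minus strand: ggcgggctcttgggtCTTTTTTagcgccat
EEF2, chr19:3985449-3985478, minus strand: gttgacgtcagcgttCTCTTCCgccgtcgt
EEF1G, chr11:62573877-62573906, minus strand: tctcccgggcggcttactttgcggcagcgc
NIP7, chr16:69339757-69339786, plus strand: gagcagcgagcgaccgacttccgtttccag
MTOR, chr1:11262537-11262566, minus strand: aaccctccttccctcgctcccggcttagag
SNHG8, chr4:118278747-118278776, plus strand: aaggcctcggcctttCacattcgggaagcg
The starts annotated for EEF1G, NIP7 and MTOR have no such run and that of SNHG8 has the C alone, and a start placed a few bases away would change this class. A C followed by at least 4 pyrimidines opened 416 of the 8089 tested genes with a promoter (5.14%), 34 of 209 risers (16.3%) and 8 of 366 fallers (2.19%).

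Of those 34 risers, 14 were ribosomal proteins and 17 were in neither list, which is 9.19% of the 185 risers outside both lists against 4.72% of all genes there. Of 47 ribosomal proteins with a promoter, 30 had the run (63.8%), among them 14 of the 20 that rose (70%) and 16 of the 27 that did not pass (59.3%). Ribosomal proteins with the run rose in 14 of 30 (46.7%) with a median of 0.18, and those without it in 6 of 17 (35.3%) with a median of 0.12. Outside both lists, genes with the run rose in 17 of 379 (4.49%) and fell in 8 (2.11%), with a median of 0.01. Genes without it rose in 168 of 7653 (2.20%) and fell in 358 (4.68%), with a median of -0.00598. The run was thus present at the start of many genes whose RNA did not pass the threshold.

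**Figure D3:**
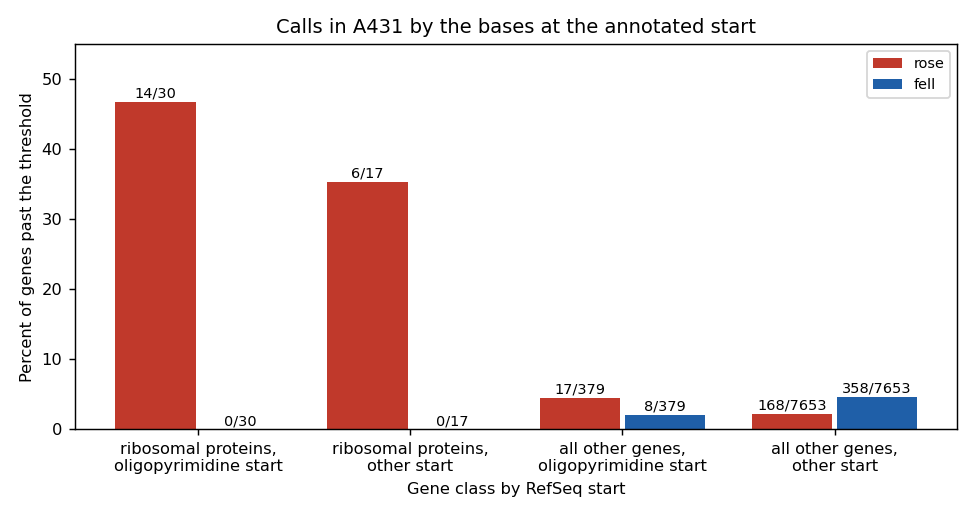
Percent of tested genes that rose (red) or fell (blue) in A431 by the bases at the RefSeq start, with counts over each bar; "all other genes" leaves out both lists of oligopyrimidine transcripts. Ribosomal proteins with the run rose in 14 of 30 and those without it in 6 of 17, while other genes rose in 17 of 379 with it and 168 of 7653 without it.

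Of 42 ribosome biogenesis factors, 2 rose, 1 fell and 39 did not pass, with 31 positive differences (49% over all tested genes) and a median of 0.04, and 4 rose after another quantile normalization or median centring. NOP53 read 8.62, 8.60 and 8.59 in DMSO and 9.09, 9.22 and 9.19 in everolimus, far above the spread within either group (0.56 ± 0.05, limma adjusted p = 9.54e-07). NIP7, which acts in 60S assembly, rose by 0.24 ± 0.04, and the small H/ACA protein NOP10, named after its value was seen, was the 1 faller (-0.21), a call absent without DMSO replicates 1 or 2 or everolimus replicates 1 or 2. Of 73 mitochondrial ribosomal proteins, 0 rose and 0 fell by limma, with a median of -0.02, and 1 fell without DMSO replicate 3, everolimus replicate 1 or everolimus replicate 3. MRPL2 had the smallest p of these (-0.13 ± 0.05, limma adjusted p = 0.0941). Respiratory chain subunits gave 0 calls among 15 tested, COX6B1 being nearest (-0.22 ± 0.08, limma adjusted p = 0.141). Of 11 noncoding snoRNA hosts, SNHG8 alone was called (0.22 ± 0.06, limma adjusted p = 0.0398), and no fit without an A431 array called it, the values being 0.085, 0.0631 and 0.157 without DMSO replicates 1, 2 and 3 and 0.0774, 0.0616 and 0.143 without everolimus replicates 1, 2 and 3.

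SREBP1 drives the enzymes of fatty acid synthesis and is promoted by mTOR complex 1. Of 28 tested genes of fatty acid and triglyceride synthesis, 5 fell, which were SREBF1 and 4 enzymes, 1 rose and the other 22 missed the threshold, and the median was -0.10. SREBF1, the gene of SREBP1, read 7.62, 7.60 and 7.61 in DMSO and 7.07, 7.12 and 6.94 in everolimus. The desaturase SCD read 11.96, 11.88 and 11.79 against 11.31, 11.20 and 11.37, and ACSL1, which activates long-chain fatty acids, read 8.32, 8.35 and 8.34 against 7.57, 7.21 and 7.47. None of these had an overlap, and the differences were -0.57 ± 0.07, -0.58 ± 0.05 and -0.92 ± 0.09. The acetyl-CoA synthetase ACSS2 (-0.44 ± 0.08) and the fatty acid synthase FASN (-0.42, named after its value was seen) fell too, and all 5 did so in each fit without an array. The desaturase relative FADS3 was the 1 riser (0.37, lost without DMSO replicate 2), also named after its value was seen. Of 20 cholesterol genes, DHCR7, the last enzyme of cholesterol synthesis, fell (-0.23 ± 0.05) and the median was -0.05, with 2 falls without everolimus replicate 2 or 3.

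Of 21 tested hypoxia and glycolysis genes, 3 fell and none rose by limma, while 18 missed the threshold, with 3 positive differences and a median of -0.13. DDIT4 (REDD1, a stress-induced inhibitor of mTOR complex 1) read 9.26, 9.23 and 9.27 in DMSO and 8.70, 8.66 and 8.70 in everolimus, which leaves 0.533 log2 units between the nearest arrays. VEGFA, an angiogenic growth factor, fell by 0.30 ± 0.06 and the glycolytic isomerase GPI by 0.17 ± 0.04, the latter not without the intensity trend (limma adjusted p = 0.101). HIF1A is unnamed here. Of 28 pentose phosphate and nucleotide synthesis genes, 2 rose and 2 fell, against 2.39% and 4.33% of all tested genes. None of the 28 was called in all 6 fits without an array. The CTP synthase CTPS1 differed by 0.34 ± 0.08 (limma adjusted p = 0.0112), lost without DMSO replicate 3 (0.0577) and everolimus replicate 1 (0.0501). The other calls, MTHFD1L (0.25), PRPS2 (-0.18) and TKT (-0.17), were named after their values were seen, and rises numbered 0 without everolimus replicate 1 while falls numbered 0 without DMSO replicates 1 or 2 or everolimus replicate 2. There was 1 rise without DMSO replicates 1, 2 or 3 or everolimus replicate 3.

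Among mTOR pathway genes the drug target itself rose. MTOR went from 8.03 ± 0.03 in DMSO to 8.28 ± 0.04 in everolimus (SD, n = 3), with no overlap between its highest DMSO array (8.06) and its lowest everolimus array (8.24). The difference was larger than the spread in either group (0.25 ± 0.05, limma adjusted p = 0.00245). Its activator RHEB (0.14 ± 0.09), the inhibitors TSC1 (-0.05 ± 0.06) and TSC2 (0.11 ± 0.06), the cap-binding factor EIF4E (-0.13 ± 0.10), its repressor EIF4EBP1 (0.11 ± 0.07) and the lysosomal transcription factor TFEB (-0.34 ± 0.15) did not pass. Their limma adjusted p-values ran from 0.218 for TFEB to 0.697 for TSC1. RPS6KB1 and LARP1 are unnamed here and DEPTOR was not tested. Of 40 tested members of the pathway list, 2 rose, 1 fell and the median was -0.02. These few calls are to be read against 2.39% of all tested genes that rose and 4.33% that fell. The phosphatase PHLPP2 (0.34) and the repressor EIF4EBP2 (-0.15), named after their values were seen, were the other calls. The fall was absent without any DMSO array and without everolimus replicates 1 or 2, and 1 rise was left without DMSO replicates 1 or 3 or everolimus replicate 2.

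Upstream, the receptors did not move as a group. AXL, a receptor tyrosine kinase, read 7.60, 7.57 and 7.62 in DMSO and 8.11, 8.15 and 8.07 in everolimus, with every everolimus array at least 0.444 above DMSO (0.51 ± 0.05, limma adjusted p = 1.77e-06). MET, the hepatocyte growth factor receptor, rose by 0.20 ± 0.04, though not without the intensity trend (limma adjusted p = 0.0799). EGFR, which A431 is known to overexpress, read 11.67, 11.63 and 11.64 against 11.57, 11.62 and 11.71, and these overlapped. IGF1R (0.16 ± 0.05, limma adjusted p = 0.0606), INSR (0.16 ± 0.14), IRS1 (0.01 ± 0.12) and IRS2 (0.10 ± 0.09) did not pass, but IGF1R did with array weights (0.0253), another quantile normalization (0.0335) and median centring (0.0385). ERBB3 differed by -0.28 ± 0.08 (limma adjusted p = 0.0326), and this call was lost without DMSO replicates 1 (0.0555), 2 (0.175) or 3 (0.0532) and without everolimus replicates 2 (0.115) or 3 (0.101). BCL6, a transcriptional repressor and FOXO target, fell by 0.42 ± 0.07. Of 36 tested receptor, substrate and FOXO genes 3 rose and 6 fell, with a median of -0.06. Falls numbered 1 without DMSO replicate 1 or 2, 3 without DMSO replicate 3 or everolimus replicate 2, and 2 without everolimus replicate 1 or 3.

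Genes downstream of EGFR and ERK went both ways, with a median of -0.000404 over 33 tested, 4 rises and 2 falls. EGR1, an immediate-early transcription factor, read 8.40, 8.43 and 8.45 in DMSO and 7.84, 7.95 and 7.75 in everolimus. DUSP6, an ERK phosphatase, read 6.52, 6.54 and 6.48 against 7.09, 6.92 and 6.73, and the ephrin receptor EPHA4 read 6.34, 6.50 and 6.58 against 6.95, 6.90 and 7.21. The groups were apart in all 3, downwards for EGR1 and upwards for DUSP6 and EPHA4. A second EGR1 probe set differed by -0.36, against -0.58 for the one used. MYC rose by 0.23 ± 0.05, whereas the cyclin CCND1 differed by -0.04 ± 0.04 (limma adjusted p = 0.684). The ETS factor ETV4 (0.36) and the phosphatase DUSP5 (-0.51) were the other calls, named after their values were seen, and 1 fall was left without DMSO replicates 1 or 3 or everolimus replicate 2.

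Few cell cycle genes passed, at shares to be read against 2.39% of all tested genes that rose and 49% that were positive. In the G1/S and replication list 3 of 30 rose and 27 did not pass, with 24 positive and a median of 0.05. In the G2/M list 2 of 55 rose and 53 did not pass, with 44 positive and a median of 0.06, and 0 fell in either list. GINS2, a subunit of the replicative helicase, read 7.08, 7.14 and 7.11 in DMSO and 7.46, 7.54 and 7.35 in everolimus, without overlap (0.34 ± 0.06, limma adjusted p = 0.00155). The checkpoint mediator CLSPN rose by 0.55 ± 0.09, but a second probe set differed by -0.06 and the mean of both was not called (limma adjusted p = 0.249). The proliferation marker MKI67 rose by 0.16 ± 0.04, which was lost without DMSO replicate 2 (limma adjusted p = 0.0545) and without the intensity trend (0.106). The G2/M rises numbered 0 without DMSO replicate 2 and 1 without each other A431 array, and 4 after another quantile normalization. The other calls, the cyclin CCNE1 (0.29) and the phosphatase CDC25B (0.14), were named after their values were seen. Among 10 cell cycle inhibitors and p53 targets, TP53INP1, a p53 target that acts in autophagy, read 5.75, 5.70 and 5.84 against 5.08, 5.33 and 5.38, a fall without overlap (-0.50 ± 0.10). RB1 (0.17) and BAX (0.27), named after their values were seen, were called as rises, and neither was without DMSO replicates 1 or 3 or any everolimus array. CDKN1B is unnamed here.

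Lysosomal, stress and immune lists held a few clear changes each. CTSS, a lysosomal cysteine protease, read 7.06, 6.96 and 6.85 in DMSO and 6.09, 5.93 and 5.99 in everolimus. LAPTM5, a lysosomal membrane protein, read 5.23, 5.33 and 5.04 against 5.39, 5.85 and 5.78. CTSS thus fell by 0.95 ± 0.11, far beyond the spread, while LAPTM5 rose by 0.47 ± 0.10 with only a narrow gap between the groups. The saposin precursor PSAP (-0.20 ± 0.03) and the aspartic protease CTSD (-0.19 ± 0.04, limma adjusted p = 0.0919 without the intensity trend) fell slightly. Of 48 tested lysosomal and autophagy genes, 7 fell and 1 rose, against 4.33% and 2.39% of all tested genes, with a median of -0.07. The falls were 3 without DMSO replicate 1, everolimus replicate 1 or everolimus replicate 2 and 4 without DMSO replicate 2, and the rises were 2 without everolimus replicate 2.

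NRF2 and oxidative stress genes had 2 positive differences among 17, with a median of -0.17. There were 5 falls and 2 rises, against 4.33% and 2.39% of all tested genes. UGDH, the source of UDP-glucuronate, fell by 0.37 ± 0.05 and the glutathione peroxidase GPX2 by 0.30 ± 0.06. Falls were 2 without DMSO replicate 1 or everolimus replicate 2 and 3 without DMSO replicates 2 or 3 or everolimus replicate 1, and 8 after another quantile normalization. Rises were 0 without everolimus replicate 2 and 1 without any DMSO array or everolimus replicate 3. Of 18 chaperones, 3 fell and 0 rose, against 4.33% and 2.39% of all tested genes. HSPB1, the small heat shock protein HSP27, read 11.67, 11.63 and 11.61 in DMSO and 11.28, 11.23 and 11.22 in everolimus. The groups were 0.33 log2 units apart at their nearest arrays, several times the range within either (limma adjusted p = 5.03e-07). The ER chaperone CALR fell by 0.23 ± 0.04. Of 18 ATF4-linked genes the stress cytokine GDF15 (-0.43 ± 0.08) and CTH (-0.38, named after its value was seen) fell, with 1 fall without DMSO replicate 2 or everolimus replicates 1 or 2. Among 18 aminoacyl-tRNA synthetases, SARS1 differed by -0.16 ± 0.04 (limma adjusted p = 0.04). That call was lost without DMSO replicates 1, 2 or 3 (0.131, 0.108 and 0.0769) and without everolimus replicates 1 or 2 (0.166 and 0.0739), and 1 synthetase rose without DMSO replicate 1. The 31 amino acid transporters listed had 0 named probe sets, and 2 of 40 proteasome genes were tested, with the assembly factor POMP at -0.07 ± 0.06.

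Of 31 interferon-stimulated genes, 4 fell and 1 rose, against 4.33% and 2.39% of all tested genes, with a median of -0.02. TRIM22, an antiviral ubiquitin ligase, fell by 0.34 ± 0.06. Falls were 2 without DMSO replicate 1 or everolimus replicate 1 and 1 without DMSO replicate 2, and the rise of IFITM1 (0.18, named after its value was seen) was lost without any DMSO array and without everolimus replicates 1 or 3. Of 18 inflammatory mediators, 3 rose and 1 fell. SAA1, an acute-phase protein, read 7.24, 7.14 and 7.15 in DMSO and 7.73, 7.63 and 7.73 in everolimus, and IL1RN, the interleukin 1 receptor antagonist, read 8.28, 8.33 and 8.29 against 7.79, 7.83 and 8.01. SAA1 was higher and IL1RN lower on every everolimus array (0.53 ± 0.06 and -0.43 ± 0.08). C3 (0.29) and CCL5 (0.32), named after their values were seen, also rose. The list had 1 rise without DMSO replicate 2 or everolimus replicate 1 and 2 falls without everolimus replicate 3.

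**Figure D4:**
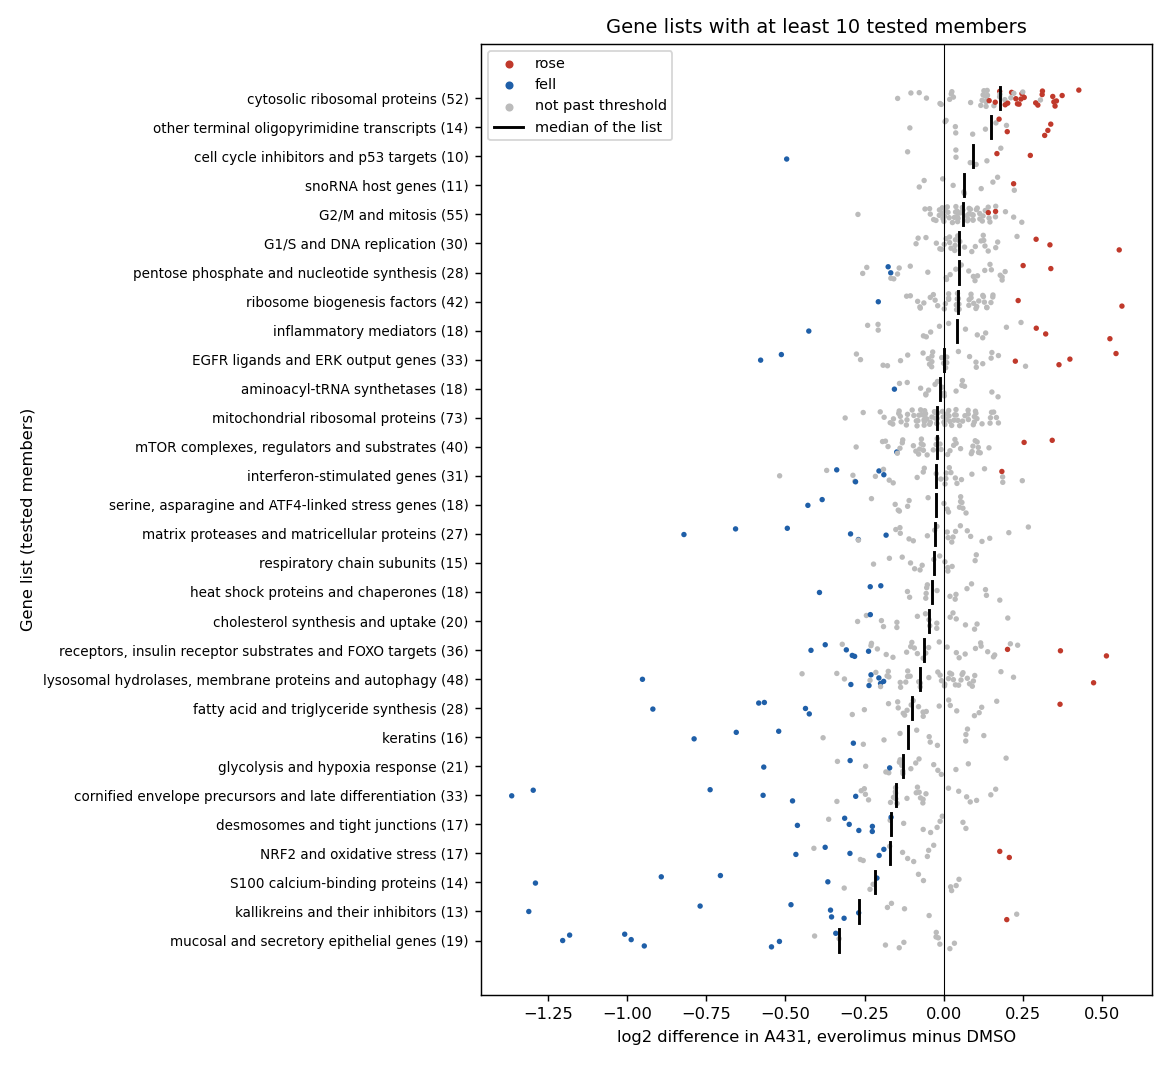
Log2 difference in A431 (everolimus minus DMSO) of each tested member of the lists with at least 10 tested genes, red for those that rose, blue for those that fell, grey for the rest, with a black bar at the list's median. The medians run from -0.33 for mucosal and secretory genes to 0.18 for cytosolic ribosomal proteins.

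Genes not annotated as protein coding made up 34 of the 714 calls, which is 2.47% of the 1379 tested against 6.73% of all genes, and 10 of the 34 were transcribed pseudogenes. The long noncoding RNA UCA1 read 10.29, 10.35 and 10.19 in DMSO and 9.81, 9.77 and 9.91 in everolimus, with no overlap (-0.45, limma adjusted p = 5.15e-06), and a second probe set differed by -0.22. Of 631 long noncoding RNAs, 8 fell and 4 rose. Among 23 genes annotated only as noncoding RNA, 4 rose, against 2.39% of all tested genes that rose. All 4 were guides of the Cajal body that direct modification of spliceosomal RNAs. SCARNA2 read 6.80, 6.71 and 6.73 against 7.24, 7.25 and 7.13, which did not overlap. SCARNA17 (0.24), SCARNA7 (0.31, lost without DMSO replicates 1 or 3 or everolimus replicate 2) and SCARNA9 (0.52, lost without DMSO replicate 2) rose less regularly. Of 442 microRNA genes, 4 fell and 3 rose, none in all 6 fits without an array. They included MIR205, of squamous epithelia, at -0.22, and an array of this kind does not separate a mature microRNA from its precursor. The genes of this paragraph were named after their values were seen.

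The same exposure of HSC-1, with its own DMSO arrays, was set beside the A431 response. The level filter counted arrays of both lines together, so a gene could be tested with A431 arrays alone above the median. HSC-1 levels of the genes below are not given. Whether a small HSC-1 difference reflects low signal in that line was not tested. The difference between the 2 responses passed in 10.5% of all tested genes, in 329 of the 714 called in A431 (46.1%) and in 49 of the 66 that moved 1.5-fold there. The A431 change that chose these genes is part of that difference, so the shares and the medians below are a description. Differences between the lines for single genes chosen in this way carry the same limit. In HSC-1, 17 of the 66 were called in the same direction, 5 in the opposite direction and 44 did not pass. The 57 genes chosen for their fall in A431 had a median of -0.78 there, which the choice itself makes low, and -0.13 in HSC-1. KLK13 differed by -0.19 ± 0.12 in HSC-1, GPR15LG by 0.10 ± 0.11, NCCRP1 by -0.07 ± 0.11 and ACSL1 by 0.05 ± 0.09. For each of these the difference between the lines passed (limma adjusted p = 0.000297, 2.14e-05, 0.000302 and 6.07e-05). The keratins KRT4 (0.17 ± 0.05) and KRT13 (0.38 ± 0.07), with VGLL1 (0.56 ± 0.07), PIGR (0.58 ± 0.13) and GPNMB (0.57 ± 0.08), rose in HSC-1.

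Other A431 changes were of like size or smaller than in HSC-1. SPRR1A (-1.18 ± 0.11 in HSC-1), S100A7 (-1.37 ± 0.14), CTSS (-1.06 ± 0.11) and GSDMC (-0.63 ± 0.10) fell there too. The difference between the lines did not pass for them (limma adjusted p = 0.531, 0.86, 0.752 and 1), at 0.19 ± 0.15, -0.08 ± 0.19, -0.11 ± 0.16 and 0.00 ± 0.13, which does not show that the responses were equal. S100A8, S100A9, CLCA2 and GNE fell more in HSC-1 than in A431, by a further 1.08 ± 0.11, 0.91 ± 0.11, 0.55 ± 0.07 and 0.77 ± 0.11. Of the 9 genes raised 1.5-fold in A431, ANTXR1 was called in HSC-1 (0.42 ± 0.07). AMIGO2 (0.26 ± 0.09, limma adjusted p = 0.0536) and MELTF (0.12 ± 0.06, limma adjusted p = 0.242) did not pass there, and for both the difference between the lines did (0.00373 and 0.0003).

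**Figure D5:**
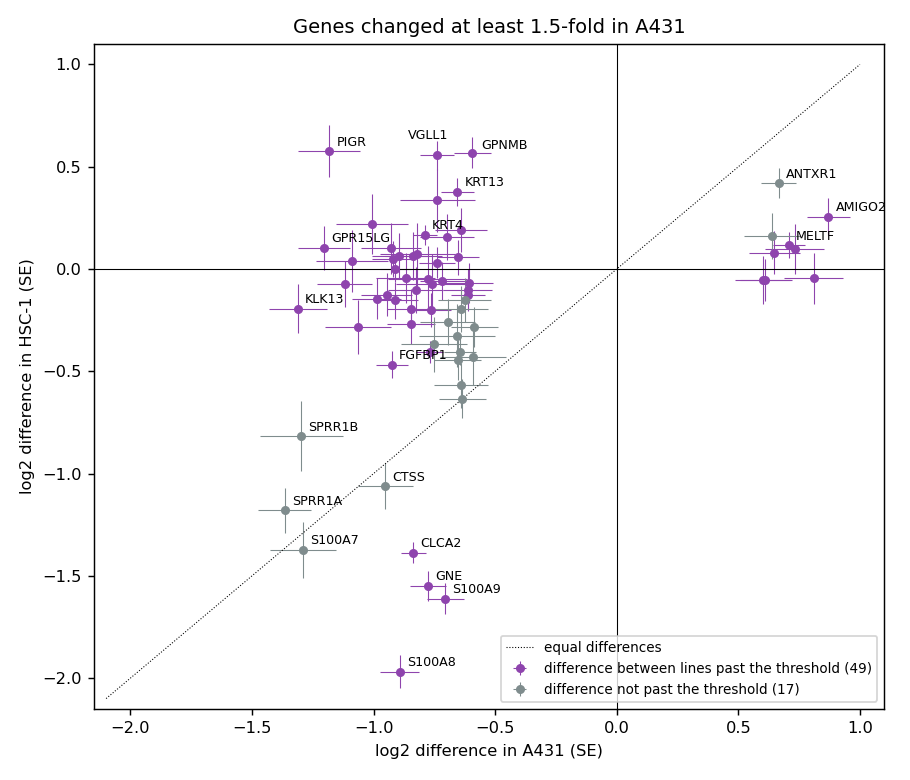
Log2 difference in HSC-1 against that in A431 (everolimus minus DMSO, bars are SE) for the 66 genes that moved at least 1.5-fold in A431; violet marks the 49 whose difference between the lines passed and grey the other 17, and the dotted line marks equal differences. Many lowered genes lie near 0 in HSC-1, where their median is -0.13, and S100A8, S100A9, CLCA2 and GNE lie below the dotted line. The levels of these genes in HSC-1 are not shown, and whether low signal there keeps a difference near 0 was not tested.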

How the data were processed

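Total RNA of 12 samples was measured on Affymetrix whole-transcript arrays. The submitters' processing notes name RMA and Affymetrix Expression Console, with which the authors derived the log2 values deposited for each probe set. For versions and genome build, nothing is given in the sources used here. The table held 53617 probe sets, of which 16098 had 1 gene symbol in the probe annotation, giving 14884 genes (779 with several probe sets).

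Group means of the 4 groups of 3 arrays were fitted with lmFit and eBayes with an intensity trend in limma 3.58.1 (R 4.3.3), with Benjamini-Hochberg adjustment over the 10613 tested genes, of which 9234 are protein coding. The threshold was an adjusted p of 0.05. HSC-1 arrays enter no mean of the A431 contrast, but they enter the shared spread (8 residual degrees of freedom), the level filter and the choice of probe set. Each of the 6 A431 arrays read 3 called genes, SPRR1B among them, under its median. Errors are moderated SEs of differences and SDs of means. The procedure was tested on simulated data.

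The members, the 38 gene lists, the motifs and the naming rule were chosen with earlier results of these data known, so no list is independent evidence. Genes are named where they moved at least 1.5-fold without overlap, as up to 4 list members with the largest change called in all 6 fits without an array (else the member with the smallest p), or from a panel of mTOR, receptor and keratinocyte genes and squamous markers. Others are marked as named after their values were seen. Protein sequences were not used here. The alternatives were a replicate block, other level filters, variance priors, array weights, normalizations, a fit on 6 arrays, the mean of probe sets, leaving out each A431 array, and stricter thresholds.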

Additional observations from a re-analysis of the deposited data

Results flagged for a closer look

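Of the 145 named genes, 91 had an everolimus effect that differed between the lines by the test of that difference. Over all tested genes the share was 10.5%. Many of the 145 were named for their A431 change, which is part of that difference, so the count is a description. Listed here are the 15 named genes that were called in both lines in opposite directions. Each value is the HSC-1 log2 difference minus the A431 log2 difference, with its SE. A call in each line with unlike signs makes this difference large, so its p-values add no separate support for these genes. In A431 the following fell and in HSC-1 they rose: PIGR (1.76 ± 0.18), VGLL1 (1.29 ± 0.10), GPNMB (1.16 ± 0.11), TP53INP1 (1.04 ± 0.14), KRT13 (1.03 ± 0.10), KRT4 (0.96 ± 0.07), TRIM22 (0.61 ± 0.09), ERBB3 (0.53 ± 0.11), PSAP (0.53 ± 0.05) and CTSD (0.46 ± 0.05). In A431 the following rose and in HSC-1 they fell: LAPTM5 (-1.97 ± 0.14), CLSPN (-1.04 ± 0.13), GINS2 (-0.81 ± 0.08), NIP7 (-0.47 ± 0.06) and MKI67 (-0.40 ± 0.05). The limma adjusted p of the difference ran from 1.76e-07 for KRT4 and LAPTM5 to 0.0037 for ERBB3, whose A431 call is one of those that single arrays end. The HSC-1 cultures and the A431 cultures may have had different serum levels, since the labels give 10 or 20% without saying which line had which, and this was not tested.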

How the results depend on the processing

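No called gene of the naming rule changed direction under the alternatives. The uncalled differences of EGFR (-0.09 to 0.02), KRT5 (-0.07 to 0.02) and IRS1 (-0.04 to 0.09) changed sign. Against 714 changed genes (254 up, 460 down), a variance prior without the intensity trend gave 438 (137 and 301), calling at 1.5-fold or more gave 66 (9 and 57) and an adjusted p of 0.01 gave 347 (103 and 244). Leaving out each A431 array gave 456 to 663 changed, 157 to 191 raised and 282 to 472 lowered, and 914 to 1080 genes that differed between the lines, against 1118. The other settings stayed within 1.5 times: 621 to 867 changed, 213 to 338 raised and 406 to 565 lowered, and 749 to 1426 for the difference between the lines with the prior without trend included. The fit on the 6 A431 arrays alone called 702 genes, 605 of them among the 714.

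No pairing by replicate number was visible. Same-numbered arrays had correlations of their deviations of -0.08, 0.02 and -0.14, and arrays with unlike numbers -0.10 to 0.17. These values cannot settle whether the samples were paired. With the replicate number as a block, 621 genes changed (213 up, 408 down), 606 of them among the 714, and 1005 differed between the lines. Of the genes given with values, the block ended the calls of ERBB3, SARS1, SNHG8, KLK6, IFITM1, EIF4EBP2, ETV4, CCL5, CDC25B, PRPS2, BAX and MIR205, which left 0 rises among kallikreins and interferon genes, 0 falls in the mTOR list and 2 among receptors.

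Of the 145 named genes, single settings ended at most 9 calls (without the intensity trend), and leaving out an array ended 3 to 7. The 9 were those of CTSD, EEF2, GPI, MET, MKI67, PLEC, SARS1, SFN and SNHG8. Of 32 list medians, at most 8 moved beyond the spread in any 1 setting. The array-level spread of 3 arrays a group, and the low signal of 9 of the 66 genes, limit these values.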
